A study of Populus alba x Populus glandulosa with 12 samples.

Results

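Leaf RNA taken on day 6 of drought was compared with leaf RNA taken on day 0 in 84K poplar (Populus alba x Populus glandulosa), a hybrid tree widely used as a woody model plant. Each day had 3 libraries of wild-type leaves. The genes described are the 38916 of 85392 gene models that reached 1 FPKM (fragments per kilobase of transcript, scaled to library size, a level corrected for gene length) in at least 3 of these 6 libraries. Another 29651 models were listed at 0 in all 6 libraries. No gene carries a description in the deposited table, so genes are named by their KEGG orthology (KO) names, which 18379 of the tested genes have, and grouped by KEGG pathway (9714 genes) and Gene Ontology (GO) term (32067 genes).

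The day 0 and day 6 libraries both carry the treatment label drought, and the series text says that controls were included among the treatment groups. Day 0 is the only control: plants kept watered until day 6 were not analysed here, so drought, plant age and time of sampling cannot be told apart. The labels also give each day a batch of its own, and the 2 cannot be told apart. No soil or leaf water measurement in the labels grades how severe the drought was on day 6. The series text calls the replicates biological but names no separate plants behind them, and the p-values may measure only technical spread. In whole leaves, fewer cells of a type and less RNA per cell cannot be told apart.

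The libraries were alike within a day. FPKM sums lay between 684857 and 730723, and relative depth, read from the spacing of low values, between 0.895 and 1.12 of the first day 0 library. The Pearson r across tested genes was 0.978 to 0.981 between libraries of the same day and 0.625 to 0.635 between days. The number of genes at 1 FPKM or more was 38059.7 ± 86.6 (SD, n = 3) on day 0 and 34599.3 ± 99.0 on day 6. The 10 most abundant genes held 3.70% ± 0.0393 of the FPKM sum on day 0 and 7.28% ± 0.0876 on day 6. A single WHY1-named gene, Pag.B08G000961.v3.1, held 2.1% of the FPKM sum on day 6 and 0.00638% on day 0. Light-harvesting antenna genes, which mark green leaf tissue, were plentiful on day 0, at 2.86% ± 0.0446 of the FPKM sum, and held 0.108% ± 0.0006 on day 6.

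When a plant dries, abscisic acid (ABA) accumulates and binds PYL receptors, which then hold back the PP2C phosphatases. This frees SnRK2 kinases to activate ABF transcription factors and to close the stomata. Leaves that stay dry lower photosynthesis, stop growing, store protective sugars such as raffinose and break down their own proteins, lipids and chlorophyll. Results are given in this order, from the hormone to its targets, then to carbon use, growth, protection and the genes with no name.

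The difference between the days reached most of the expressed genome. Of the 38916 genes, 11569 (29.7%) rose and 19045 (48.9%) fell at a limma adjusted p under 0.05, 78.7% together, and 8302 did not pass. With a log2 change of at least 1 beside the test, 4621 rose (11.9%) and 8467 fell (21.8%), 33.6% together. The 3 day 6 libraries did not overlap the 3 day 0 libraries for 81.2% of genes. Changes of at least 5 on the log2(FPKM + 1) scale were reached by 126 rises and 170 falls. The excess of falls was smaller among genes with a mean of at least 5 FPKM, where 8435 rose and 10545 fell. Its size also depended on the scale. FPKM are relative to a library's total, and dividing each library by its median ratio to the mean library moved the median log2 change of all genes from -0.22 to 0.0061, a shift of 0.23. After this scaling 15329 genes rose (39.4%) and 15102 fell (38.8%), 78.2% together, so that rises made up 50.4% of the calls in place of 37.8%. With a log2 change of at least 1 beside the test, 5903 rose and 6875 fell after scaling, so falls still led there. The scaling itself sets the median change near 0, so the near-even split does not show which scale is right. Of the genes called lower on the deposited values, 3943 were no longer called lower after scaling, 114 of them being called higher, and 0 of the genes called higher were lost. Medians after scaling are therefore given beside most of those from the deposited values, with counts after scaling where they differ much.

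**Figure D1:**
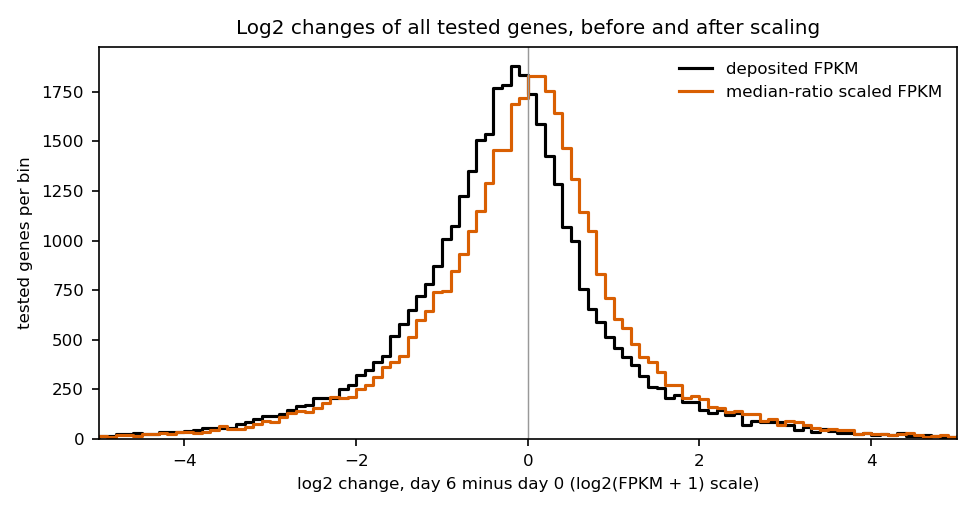
Number of tested genes (vertical axis) by log2 change from day 0 to day 6 on the log2(FPKM + 1) scale (horizontal axis), for the deposited values (black) and the values after median-ratio scaling (orange). The 2 outlines are similar in shape, and the scaled one is shifted by 0.23 so that its median lies at 0.0061 in place of -0.22.

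ABA signalling genes split by their role. PP2C phosphatases, the negative regulators of the pathway, stood higher on day 6: of 27 tested, 21 rose and 3 fell, with a median log2 change of 2.77, 3.01 after scaling, where 29.7% of all genes rose. The PP2C gene with the largest rise, Pag.B15G001296.v3.1, was at 0.070, 0 and 0.090 FPKM in the day 0 libraries and 134, 138 and 132 FPKM in the day 6 libraries (log2 change 7.01 ± 0.0578 (SE), limma adjusted p = 6.46e-16). It was near 0 in each day 0 library and above 130 FPKM in each day 6 library. The receptors moved the other way. Of 22 PYL genes 2 rose and 19 fell, with a median log2 change of -1.04, -0.83 after scaling; 48.9% of all genes fell. Pag.A16G000234.v3.1 fell from 7.09 ± 0.33 to 0.803 ± 0.242 FPKM (log2 change -2.17 ± 0.12 (SE), limma adjusted p = 4.92e-09), and the larger of the 2 rises, that of Pag.A12G001172.v3.1, went from 10.2 ± 0.060 to 16.7 ± 0.11 FPKM.

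Downstream of both, the SnRK2 kinases were mixed, and the ABF transcription factors rose more often than they fell. Of 26 SnRK2 genes 10 rose and 11 fell (median log2 change of 0.15, 0.41 after scaling). Pag.B02G001087.v3.1 rose from 2.07 ± 0.346 to 18.2 ± 1.51 FPKM, and Pag.A19G000132.v3.1 fell from 21.1 ± 2.1 to 1.91 ± 1.07 FPKM. Of 25 ABF genes 15 rose and 6 fell (median log2 change of 0.54, 0.80 after scaling), among them Pag.A04G001436.v3.1, which rose (log2 change 1.99 ± 0.0449 (SE), limma adjusted p = 1.44e-12). All 7 tested genes named MAPKKK17_18, kinases that ABA induces in Arabidopsis, rose (median log2 change of 1.9, 2.05 after scaling).

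ABA synthesis and ABA breakdown each held genes that rose and genes that fell by a wide margin. NCED, the enzyme that makes the first committed ABA precursor from carotenoids, had 8 tested genes, of which 4 rose and 4 fell. Pag.B11G000660.v3.1 was at 0.73, 1.17 and 1.23 FPKM in the day 0 libraries and 177, 191 and 180.4 FPKM in the day 6 libraries (log2 change 6.5 ± 0.0815 (SE), limma adjusted p = 1.24e-14). Pag.B19G001289.v3.1 was at 60.3, 68 and 61.1 FPKM in the day 0 libraries and 1.39, 0.42 and 0.33 FPKM in the day 6 libraries (log2 change -5.28 ± 0.27 (SE), limma adjusted p = 2.54e-08). The days did not overlap for either, and the gene that led on day 0 was among the lowest of the family on day 6. CYP707A, the hydroxylase that breaks ABA down, was also split by count, with 6 rises and 6 falls among 12. Its rises were the larger: all 6 reached 2 on the log2 scale, against 2 of the falls. For NCED 4 rises and 4 falls did. The CYP707A sum went from 55.6 to 243.3 FPKM. Pag.A09G000355.v3.1 rose from 0.35 ± 0.0608 to 54.6 ± 0.739 FPKM, while Pag.B02G001406.v3.1 fell from 14.4 ± 0.476 to 0.133 ± 0.0839 FPKM. Upstream of NCED, all 7 genes named crtZ, the beta-carotene hydroxylase, rose (median log2 change of 4.1, 4.26 after scaling). The other listed genes of carotenoid steps mostly fell. ZEP had 2 rises and 4 falls among 6 (median log2 change of -0.64, -0.48 after scaling), and all 3 VDE genes fell. The whole ABA synthesis list had 13 rises and 17 falls among 30 (median log2 change of -0.69, -0.45 after scaling). Its summed level nonetheless went up, from 334.1 to 973.7 FPKM. The sums rose for NCED (121.1 to 497.4 FPKM), crtZ (10.5 to 286.5) and ZEP (103.6 to 164.1). They fell for VDE (51.0 to 6.55), ABA2 (26.6 to 13.3) and AAO3 (21.4 to 5.73). The last steps, ABA2 (2 genes) and AAO3 (4 genes), fell in every tested member, with medians of -0.91 and -1.33.

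**Figure D2:**
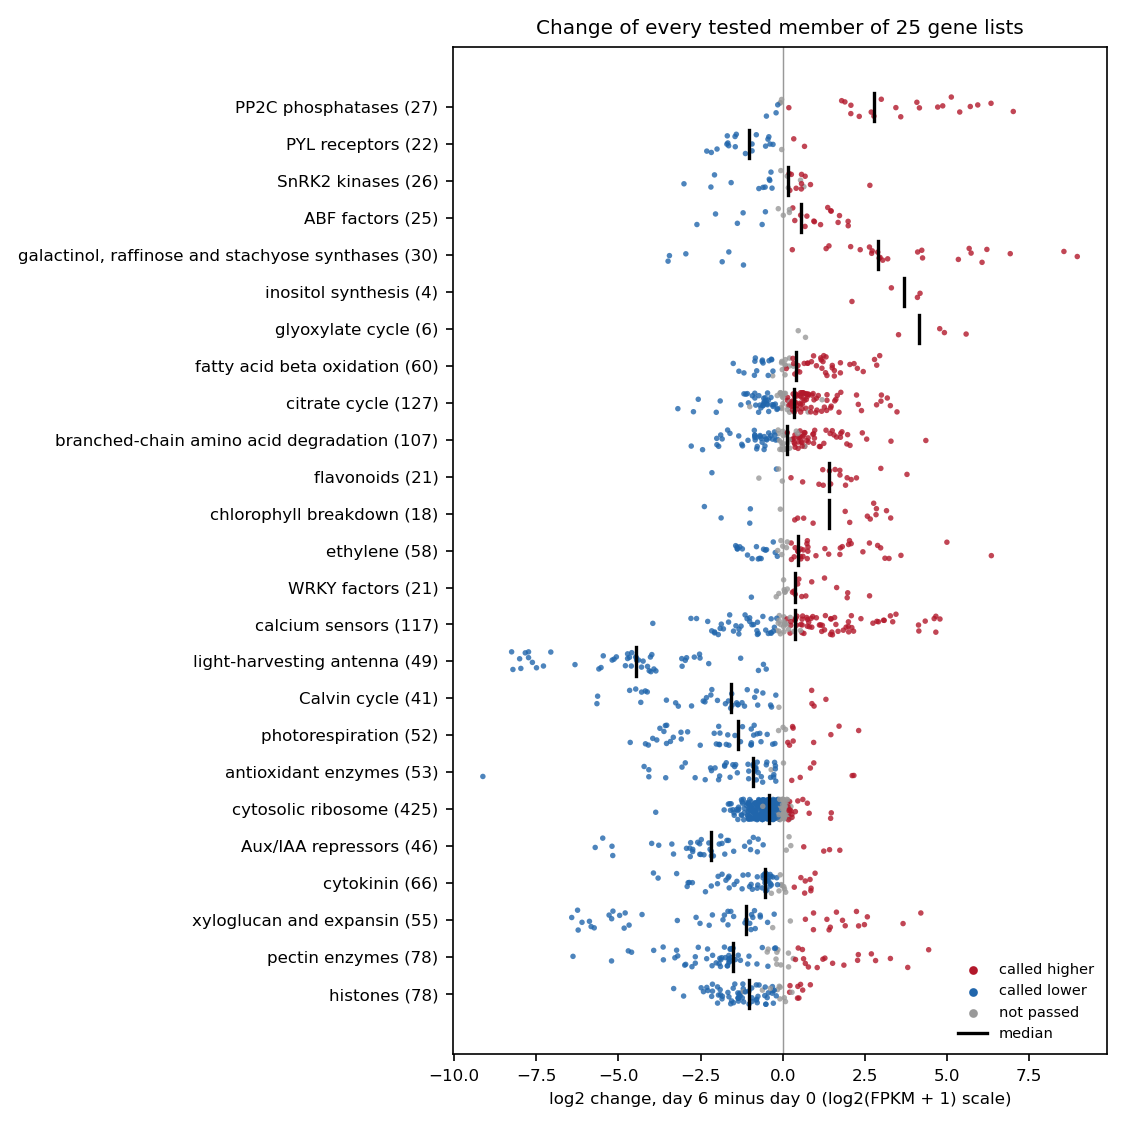
Log2 change from day 0 to day 6 (horizontal axis, log2(FPKM + 1) scale) of each tested member of 25 gene lists (rows, number tested in parentheses). Each point is 1 gene, red where it was called higher, blue where it was called lower and grey where it did not pass, and the black bar is the median. PP2C phosphatases lie to the right with a median of 2.77, and the antenna genes to the left with a median of -4.47.

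Most tested genes on the route to raffinose, a protective sugar, rose. Galactinol synthase (GOLS) makes the galactose donor, and raffinose and stachyose synthases pass the galactose on to sucrose. Of the 30 tested genes for these 3 enzymes 24 rose and 6 fell (median log2 change of 2.91, 3.11 after scaling). Their summed level was 0.0406% ± 0.0010 of all FPKM on day 0 and 0.798% ± 0.0050 on day 6. All 4 tested genes of INO1, which makes the inositol backbone, rose (median log2 change of 3.7, 3.97 after scaling). Pag.A07G002464.v3.1 (INO1) was at 12, 12.7 and 11.9 FPKM in the day 0 libraries and 245, 229 and 238 FPKM in the day 6 libraries (log2 change 4.17 ± 0.0496 (SE), limma adjusted p = 8.19e-15). Each day 6 library was above 200 FPKM and each day 0 library below 13.

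Proline is another osmolyte of drying leaves, and the calls of its synthesis genes depended on the scaling. Of 6 proline synthesis genes 2 rose and 1 fell (median log2 change of 0.0082, 0.26 after scaling), and 4 rose and 0 fell after scaling. The larger of the 2 rises was that of the P5CS gene Pag.A08G001927.v3.1, from 4.05 ± 0.0757 to 8.85 ± 0.0603 FPKM. All 3 tested genes of proline dehydrogenase (PRODH), which breaks proline down, rose. Pag.A04G001115.v3.1 (PRODH) was at 2.04, 2.41 and 2.32 FPKM in the day 0 libraries and 25.3, 24.4 and 23.4 FPKM in the day 6 libraries (log2 change 2.96 ± 0.064 (SE), limma adjusted p = 9.89e-13). The days did not overlap. The fall of the proC gene Pag.B06G002467.v3.1 was -0.32 on the log2 scale and was lost after scaling (-0.084, limma adjusted p = 0.41).

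Starch and sucrose families held both large rises and large falls. Beta-amylase, which releases maltose from starch, had 24 tested genes, of which 10 rose and 11 fell. Pag.B17G001409.v3.1 (beta-amylase) was at 372, 358 and 362 FPKM in the day 0 libraries and 4.53, 4.79 and 5.43 FPKM in the day 6 libraries (log2 change -5.95 ± 0.20 (SE), limma adjusted p = 1.15e-09). Pag.A08G000743.v3.1 (beta-amylase) was at 1.51, 1.53 and 1.69 FPKM in the day 0 libraries and 51.8, 51.8 and 52.1 FPKM in the day 6 libraries (log2 change 4.36 ± 0.0673 (SE), limma adjusted p = 6.42e-14). The days did not overlap in either direction. Sucrose synthase genes also went both ways, with Pag.B04G000825.v3.1 rising from 26.6 ± 1.61 to 338 ± 9.53 FPKM and Pag.A06G001598.v3.1 falling from 22.9 ± 1.49 to 0.857 ± 0.15 FPKM. The median of the sucrose cleavage list was -0.13 on the deposited values and 0.12 after scaling, so the list as a whole had no direction that held under both.

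Genes of lipid breakdown rose more often than they fell. The glyoxylate cycle, which turns fatty acid carbon into sugars and is best known from germinating oil seeds, had 6 tested genes, of which 4 rose and 0 fell (median log2 change of 4.15, 4.34 after scaling). Pag.A17G001417.v3.1, isocitrate lyase (aceA), was at 0.050, 0.22 and 0.090 FPKM in the day 0 libraries and 48.4, 54.6 and 54.3 FPKM in the day 6 libraries (log2 change 5.58 ± 0.15 (SE), limma adjusted p = 1.1e-11). Pag.B15G000559.v3.1, malate synthase (aceB), was at 4.75, 3.22 and 3.97 FPKM in the day 0 libraries and 152, 152 and 141 FPKM in the day 6 libraries. Both genes were below 5 FPKM in each day 0 library and above 45 FPKM in each day 6 library. The 2 tested genes of the cycle that did not pass were both for malate synthase. Of 60 beta oxidation genes 34 rose and 15 fell (median log2 change of 0.41, 0.66 after scaling), including 13 of 16 for acyl-CoA oxidase, the first enzyme, and 0 of those 16 fell. Pag.B16G000299.v3.1 (acyl-CoA oxidase) rose from 10.5 ± 0.807 to 82.5 ± 1.96 FPKM.

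Genes of mitochondrial respiration were mixed, with some enzymes called higher in every tested gene. Of 127 citrate cycle genes 71 rose and 37 fell (median log2 change of 0.34, 0.58 after scaling), and all 8 citrate synthase genes rose (median log2 change of 1.52, 1.76 after scaling). The largest rise in the cycle's pathway was that of Pag.B07G001461.v3.1, PEP carboxykinase, from 2.85 ± 0.125 to 41.8 ± 3.0 FPKM (log2 change 3.47 ± 0.0629 (SE), limma adjusted p = 2.32e-13), and the largest fall that of the malate dehydrogenase gene Pag.A01G003308.v3.1, from 67.5 ± 2.35 to 6.52 ± 0.607 FPKM. All 6 genes of the alternative oxidase, which lets electrons bypass the cytochrome path, rose (median log2 change of 1.73, 1.99 after scaling), and so did all 6 of cytochrome c itself (median log2 change of 1.59, 1.86 after scaling). The KEGG pathway of oxidative phosphorylation had no such direction. It held 86 rises and 97 falls among 256 (33.6% and 37.9%), where 29.7% of all genes rose and 48.9% fell. Its median turned from -0.10 to 0.14 on scaling. Branched-chain amino acid breakdown was split, with 48 rises and 38 falls among 107 (median log2 change of 0.14, 0.36 after scaling). Its largest rise, Pag.B05G001863.v3.1 (BCKDHA, a subunit of the ketoacid dehydrogenase), went from 3.47 ± 0.070 to 90.2 ± 2.19 FPKM.

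Most tested genes of photosynthesis, photorespiration and nitrogen assimilation fell. All 49 antenna genes fell, as did 79 of 82 nuclear genes for photosystem and electron transport subunits (median log2 change of -3.44, -3.17 after scaling). The Calvin cycle, which fixes carbon dioxide, had 4 rises and 36 falls among 41 (median log2 change of -1.59, -1.38 after scaling). Chlorophyll synthesis had 5 rises and 53 falls among 62 (median log2 change of -1.85, -1.65 after scaling), and chlorophyll breakdown had 13 rises and 4 falls among 18 (median log2 change of 1.41, 1.68 after scaling). Photorespiration, which recycles the product of rubisco's oxygen reaction, had 9 rises and 40 falls among 52 (median log2 change of -1.37, -1.15 after scaling). Pag.B06G000555.v3.1, the P protein of glycine decarboxylase (GLDC), was at 91.8, 102 and 103 FPKM in the day 0 libraries and 2.69, 3.01 and 3.34 FPKM in the day 6 libraries (log2 change -4.64 ± 0.077 (SE), limma adjusted p = 1.16e-13). All 3 day 6 libraries were low, with no overlap. The ammonia that photorespiration frees is bound again by glutamine synthetase, and of 21 such genes (glnA) 2 rose and 16 fell. Pag.A08G000514.v3.1 (glnA) was at 133, 143 and 140.2 FPKM in the day 0 libraries and 1.89, 1.68 and 1.49 FPKM in the day 6 libraries (log2 change -5.7 ± 0.13 (SE), limma adjusted p = 3.31e-12). Each day 6 library was below 2 FPKM. It led the falls among 49 nitrogen assimilation genes, of which 13 rose and 32 fell (median log2 change of -0.70, -0.44 after scaling). The thiazole synthase gene Pag.B04G000210.v3.1 (THI4), of vitamin B1 synthesis, fell from 326 ± 16.2 to 3.89 ± 0.25 FPKM. Of 69 tested genes with names that belong to the plastid genome, 60 did not pass, 1 rose and 8 fell. Their summed levels did not overlap, at 606 to 696 FPKM on day 0 and 422 to 494 on day 6. These models carry chromosome identifiers like all others, and many were low or uneven. The 16 psbA genes summed to 47.4 FPKM on day 0, and the 3 ndhA genes to between 3.53 and 42.4 FPKM in single day 0 libraries. Their calls therefore do not show whether transcripts of the plastid genome changed.

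Aux/IAA, cytokinin and brassinosteroid synthesis genes mostly fell, while other auxin genes went both ways. Aux/IAA repressors are short-lived proteins whose genes auxin induces, and of 46 such genes 4 rose and 39 fell (median log2 change of -2.17, -1.99 after scaling). Pag.B13G000446.v3.1 (IAA) was at 74.3, 63 and 66.9 FPKM in the day 0 libraries and 0.37, 0.38 and 0.22 FPKM in the day 6 libraries (log2 change -5.71 ± 0.0904 (SE), limma adjusted p = 8.01e-14). It fell to below 1 FPKM in each day 6 library. Auxin response factors had 10 rises and 10 falls among 23, with a median that changed sign on scaling (-0.016 to 0.25). The SAUR and GH3 genes, which auxin also induces, had 23 rises and 24 falls among 59, with a median that turned from -0.15 to 0.073. Within them GH3, whose enzymes bind auxin to amino acids, had 8 rises and 6 falls among 14 (median log2 change of 0.98), and 8 rises and 5 falls after scaling. Type-A response regulators (ARR-A), which cytokinin induces, fell in all 6 tested genes (median log2 change of -2.81, -2.64 after scaling). The cytokinin list held 8 rises and 50 falls among 66 (median log2 change of -0.53, -0.32 after scaling). Brassinosteroid synthesis, the pathway to the steroid hormones of cell expansion, had 0 rises and 25 falls among 26 (median log2 change of -1.63, -1.43 after scaling). Pag.A07G001825.v3.1, its hydroxylase DWF4, was at 34.2, 34.2 and 34.8 FPKM in the day 0 libraries and 0.69, 1.33 and 1.38 FPKM in the day 6 libraries (log2 change -4.07 ± 0.15 (SE), limma adjusted p = 1.95e-10). The 3 day 0 libraries were nearly level and lay clear of all 3 day 6 libraries. All 8 tested genes of gibberellin 2-oxidase, which inactivates gibberellin, rose (median log2 change of 0.51, 0.75 after scaling).

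Most tested genes of the cytoskeleton and the cell wall fell as well. All 29 beta-tubulin genes (TUBB) fell (median log2 change of -2.13, -1.97 after scaling), as did 32 of 33 cellulose synthase genes (CESA) and 0 rose (median log2 change of -1.77, -1.58 after scaling). Pag.B06G002534.v3.1 (TUBB) was at 38.1, 40.6 and 41.8 FPKM in the day 0 libraries and 0.070, 0.25 and 0.17 FPKM in the day 6 libraries (log2 change -5.15 ± 0.0945 (SE), limma adjusted p = 2.58e-13). The groups were far apart. Pag.B18G000292.v3.1 (CESA) fell from 38.9 ± 0.736 to 2.57 ± 0.273 FPKM. Pectin enzymes had 18 rises and 50 falls among 78 (median log2 change of -1.52, -1.33 after scaling), and xyloglucan transferases and expansins 15 rises and 38 falls among 55 (median log2 change of -0.87 after scaling). The xyloglucan transferase gene Pag.B19G001494.v3.1 fell from 92.4 ± 2.87 to 0.0933 ± 0.0808 FPKM, while Pag.B02G000668.v3.1 of the same family rose from 1.28 ± 0.297 to 40.7 ± 2.56 FPKM. Tonoplast aquaporins (TIP), which let water into the vacuole, had 2 rises and 19 falls among 21 (median log2 change of -1.79, -1.57 after scaling). Pag.A16G000485.v3.1 (TIP) was at 164, 156 and 163 FPKM in the day 0 libraries and 1.27, 1.6 and 1.88 FPKM in the day 6 libraries (log2 change -5.98 ± 0.0789 (SE), limma adjusted p = 1.87e-14). No day 6 library reached 2 FPKM.

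Histone and ribosomal protein genes fell by smaller steps. Of 78 histone genes 8 rose and 60 fell (median log2 change of -1.03, -0.87 after scaling), including all 13 for the linker histone H1. Of 425 cytosolic ribosomal protein genes 17 rose and 317 fell, with a median of -0.40 that came to -0.14 after scaling, where 86 rose and 199 fell. Ribosome biogenesis factors had 60 rises and 49 falls among 180 (median log2 change of 0.047, 0.27 after scaling), and 100 rises and 24 falls after scaling. Genes that are often used as references for qPCR had 17 rises and 64 falls among 91, with a median log2 change of -0.80, -0.52 after scaling. Tubulins and actins held most of these falls: all 29 beta-tubulin genes, 12 of 15 alpha-tubulin genes and 12 of 15 actin genes. Other families were more even. GAPDH had 5 rises and 5 falls among 13, and EEF1A 4 rises and 6 falls among 12. The PP2A subunit (PPP2R1) had 3 rises and 0 falls among 6.

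Rises outnumbered falls among ethylene, WRKY, calmodulin-like and JAZ genes. Ethylene genes had 34 rises and 18 falls among 58 (median log2 change of 0.46, 0.72 after scaling). Pag.B02G001770.v3.1, an ACC synthase (ACS1_2_6) of the step that limits ethylene synthesis, was at 0.27, 0.13 and 0.40 FPKM in the day 0 libraries and 104, 104 and 96.9 FPKM in the day 6 libraries (log2 change 6.34 ± 0.0802 (SE), limma adjusted p = 1.32e-14). The gene was below 1 FPKM in each day 0 library and above 90 FPKM in each day 6 library. WRKY factors had 13 rises and 1 fall among 21 (median log2 change of 0.38, 0.64 after scaling), with Pag.A19G001344.v3.1 (WRKY33) going from 3.91 ± 0.544 to 29.5 ± 0.336 FPKM. Calmodulin-like calcium sensors (CML) had 40 rises and 11 falls among 57 (median log2 change of 1.2, 1.42 after scaling), led by Pag.B12G000602.v3.1, from 9.39 ± 2.5 to 280.1 ± 21.6 FPKM. EREBP factors, of the ethylene response family, had 32 rises and 22 falls among 68 (median log2 change of 0.33, 0.58 after scaling). JAZ repressors of jasmonate signalling had 14 rises and 7 falls among 21 (median log2 change of 1.0, 1.2 after scaling). HD-ZIP factors mostly fell, 45 of 64 against 13 that rose (median log2 change of -0.73, -0.57 after scaling). One of the rises was large: Pag.B14G000966.v3.1 (HD-ZIP) was at 5.47, 5.07 and 4.85 FPKM in the day 0 libraries and 476, 461 and 472 FPKM in the day 6 libraries (log2 change 6.26 ± 0.0398 (SE), limma adjusted p = 1.16e-16). The 3 libraries of each day lay close together and the days did not overlap.

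**Figure D3:**
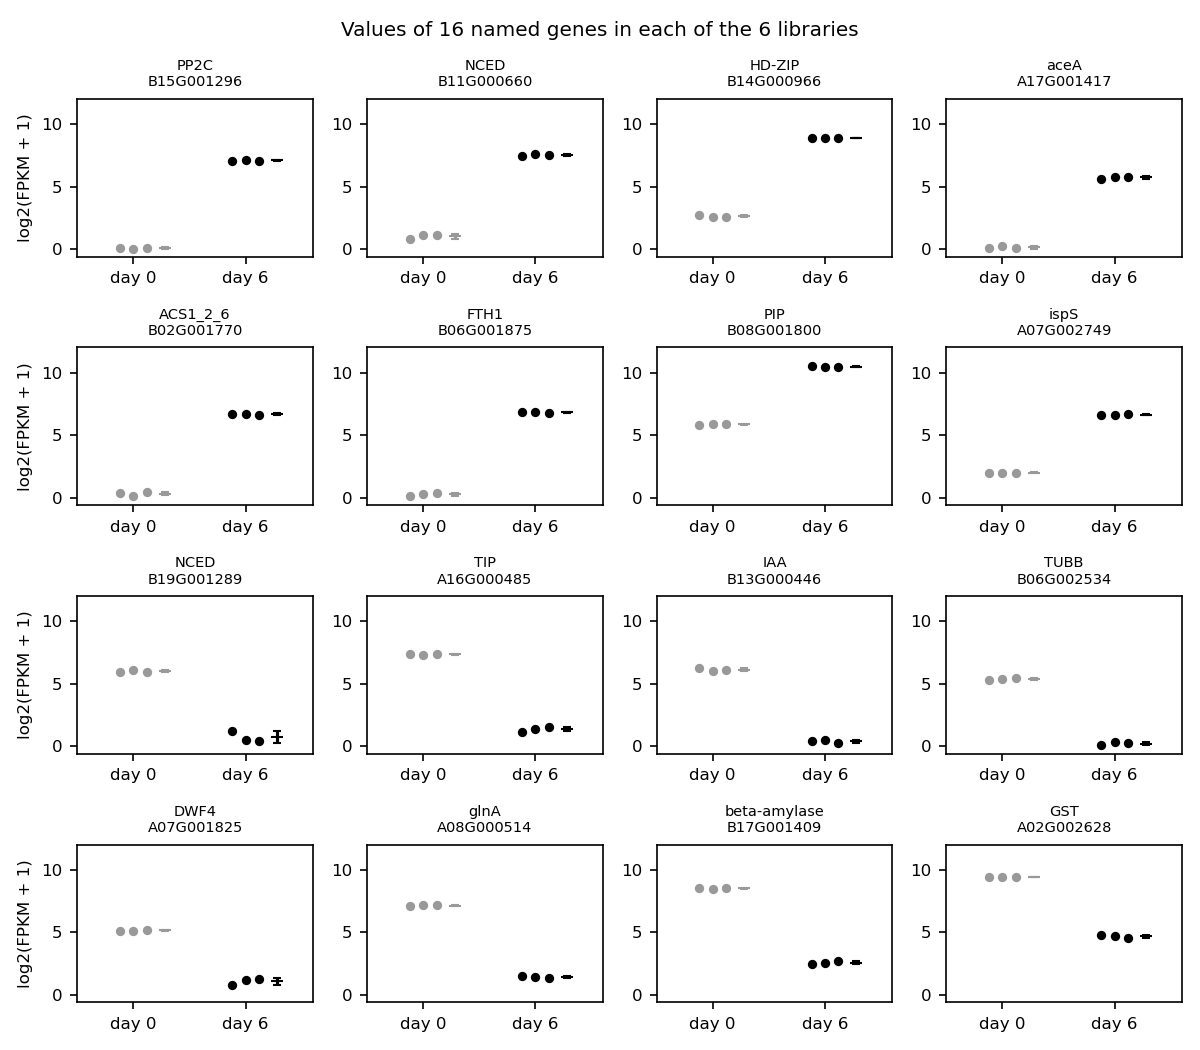
Values of 16 named genes as log2(FPKM + 1) (vertical axis) in the 3 libraries of day 0 (grey points) and the 3 of day 6 (black points), with the mean and SD of the 3 values beside them. In the first 2 rows day 6 lies above day 0 and in the last 2 rows below it, with no overlap for any of the 16.

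Rises outnumbered falls among heat shock, proteasome and autophagy genes, and by more after scaling. Of all genes 29.7% rose and 48.9% fell, and 39.4% and 38.8% after scaling. The median of the folding chaperones of the endoplasmic reticulum (ER) turned sign under the shift that scaling gave all genes. Heat shock proteins had 46 rises and 27 falls among 91 (median log2 change of 0.20, 0.43 after scaling) and 55 rises and 16 falls after scaling, with the small heat shock gene Pag.B10G001862.v3.1 (HSP20) going from 0.113 ± 0.115 to 21.4 ± 2.38 FPKM. ER folding chaperones had 18 rises and 30 falls among 56 (32.1% and 53.6%), near the shares of all genes on the deposited values. After scaling they had 27 rises and 19 falls, with a median that turned from -0.14 to 0.12, while that of all genes went from -0.22 to 0.0061. Proteasome subunits had 58 rises and 35 falls among 146 (median log2 change of 0.065, 0.33 after scaling), and 96 rises and 15 falls after scaling. Pag.A06G002978.v3.1 (PSMA4) fell the most among them, from 473 ± 39.5 to 38.5 ± 2.21 FPKM. Autophagy genes had 29 rises and 18 falls among 74 (median log2 change of 0.14, 0.36 after scaling), and 47 rises and 12 falls after scaling. Pag.A10G001703.v3.1 (ATG8, the protein that coats autophagic membranes) rose from 2.76 ± 0.601 to 89.1 ± 0.694 FPKM (log2 change 4.59 ± 0.0969 (SE), limma adjusted p = 8.35e-13).

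Antioxidant enzyme genes mostly fell: 6 rises and 45 falls among 53 (median log2 change of -0.89, -0.63 after scaling), including 10 of 11 genes for copper-zinc superoxide dismutase (SOD1) and all 6 for the manganese and iron type (SOD2). The summed level of the list went from 2527 to 1603 FPKM. Ascorbate peroxidase had 3 rises and 5 falls among 8 genes, and its sum went from 112.5 to 324.5 FPKM. Its gene Pag.B09G000141.v3.1 rose from 36.9 ± 0.889 to 169 ± 4.87 FPKM. Catalase had 1 rise and 2 falls among 3 genes, and its sum went from 381.8 to 530.6 FPKM. Ferritin stores iron. Of its 9 tested genes (FTH1) 7 rose and 0 fell (median log2 change of 2.67, 2.92 after scaling), and Pag.B06G001875.v3.1 (FTH1) was at 0.10, 0.26 and 0.28 FPKM in the day 0 libraries and 115, 113 and 109 FPKM in the day 6 libraries (log2 change 6.55 ± 0.0662 (SE), limma adjusted p = 2.79e-15). It was below 1 FPKM in each day 0 library and above 100 FPKM in each day 6 library. The GO term cellular iron ion homeostasis had 25 rises and 7 falls among 37.

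Genes for surface lipids, flavonoids and isoprene rose in part. Cuticle genes had 21 rises and 17 falls among 38 (median log2 change of 0.37, 0.56 after scaling). Pag.B14G001784.v3.1 (CER1), of wax alkane synthesis, was at 0, 0 and 0.12 FPKM in the day 0 libraries and 28.5, 35.4 and 33.5 FPKM in the day 6 libraries (log2 change 5.0 ± 0.0861 (SE), limma adjusted p = 1.58e-13). It was at or near 0 on day 0 and clear of it in each day 6 library. The flavonoid list, made of enzymes from chalcone synthase to the proanthocyanidin branch, had 16 rises and 2 falls among 21 (median log2 change of 1.42, 1.56 after scaling), with Pag.A10G001481.v3.1 (LAR, of the proanthocyanidin branch) going from 3.21 ± 0.601 to 56.4 ± 2.91 FPKM. The list summed to 93.0 FPKM on day 0 and 176.1 on day 6. Most of the day 0 sum lay in 4 chalcone isomerase genes, with 1 rise and 2 falls, whose sum fell from 64.8 to 35.95 FPKM. Among them Pag.B19G000868.v3.1 fell from 45.9 ± 2.12 to 9.55 ± 0.674 FPKM. The wider KEGG pathway of flavonoid biosynthesis was divided, with 30 rises and 28 falls among 63 and a median that turned from -0.058 to 0.13 on scaling. All 7 cinnamoyl-CoA reductase genes (CCR), at the entry to lignin, rose (median log2 change of 0.80, 1.02 after scaling), while the whole lignin list had 46 rises and 46 falls among 107 and a median that turned from -0.058 to 0.16 on scaling. The laccase gene Pag.B05G002004.v3.1 was at 0, 0 and 0 FPKM in the day 0 libraries and 94.7, 119 and 90.7 FPKM in the day 6 libraries (limma adjusted p = 2.17e-13). It was listed at 0 in every day 0 library and above 90 FPKM in every day 6 library. Isoprene synthase (ispS), the source of the isoprene that poplar leaves emit, had 4 tested genes, of which 3 rose and 1 fell. Pag.A07G002749.v3.1 (ispS) was at 2.83, 3.03 and 3.03 FPKM in the day 0 libraries and 95.8, 97.5 and 100.3 FPKM in the day 6 libraries (log2 change 4.64 ± 0.0393 (SE), limma adjusted p = 7.53e-16). The libraries were close within each day and far apart between days.

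Large rises and large falls stood side by side in some families. Of 3514 KO names with at least 2 tested genes, 87 (2.48%) held both a called rise and a called fall of at least 2 on the log2 scale. SWEET sugar carriers had the widest spread, from -3.67 to 8.88 among 18 genes. GOLS followed, with 10 rises and 4 falls among 14, from -3.49 to 8.96. Plasma membrane aquaporins (PIP) had 12 rises and 13 falls among 25, none left without a call. Pag.B08G001800.v3.1 (PIP) was at 56, 59.6 and 57.2 FPKM in the day 0 libraries and 1447, 1384 and 1381 FPKM in the day 6 libraries (log2 change 4.58 ± 0.0624 (SE), limma adjusted p = 2.39e-14). It was present in all 6 libraries and far higher in those of day 6. Pag.A09G001304.v3.1 (PIP), the member with the largest fall, went from 559 ± 20.1 to 45.8 ± 1.44 FPKM. The summed level of all aquaporins was 0.652% of FPKM on day 0 and 0.861% on day 6, although 40 of the 59 genes fell and 18 rose. Glutathione transferases (GST) had 27 rises and 27 falls among 57. Pag.A02G002628.v3.1 (GST) was at 679.7, 680 and 683 FPKM in the day 0 libraries and 26.5, 25.2 and 21.9 FPKM in the day 6 libraries (log2 change -4.74 ± 0.11 (SE), limma adjusted p = 8.76e-12). Its day 6 libraries all lay far below those of day 0. Pag.B19G001533.v3.1 (GST) rose from 12.2 ± 1.77 to 204 ± 6.9 FPKM. Near-identical copies may share reads, so values of single members of such families are uncertain.

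**Figure D4:**
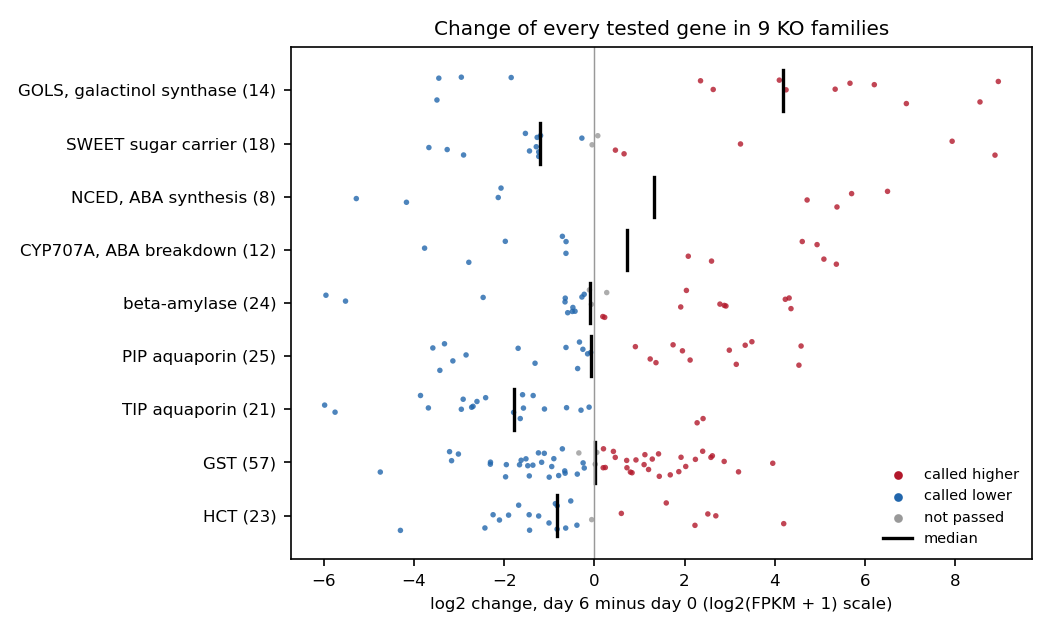
Log2 change from day 0 to day 6 (horizontal axis, log2(FPKM + 1) scale) of each tested gene in 9 KO families (rows, number tested in parentheses). Points are genes, coloured by whether they were called higher (red), lower (blue) or neither (grey), and the black bar is the median. NCED and CYP707A fall into a left and a right group with no gene near 0 for NCED.

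The largest changes of all belonged to genes with no KO name. Pag.A02G002529.v3.1 was at 0.17, 0.080 and 0.030 FPKM in the day 0 libraries and 1515, 1441 and 1488 FPKM in the day 6 libraries (log2 change 10.41 ± 0.0701 (SE), limma adjusted p = 1.51e-16). It was near 0 in each day 0 library and among the most abundant genes in each day 6 library. Pag.B01G004246.v3.1 rose from 0.247 ± 0.146 to 1011 ± 14.5 FPKM. In the other direction Pag.A07G002260.v3.1 was at 1189.7, 1249.8 and 1136 FPKM in the day 0 libraries and 0, 0 and 0 FPKM in the day 6 libraries, and Pag.B07G000832.v3.1 and Pag.A05G000998.v3.1 were also above 1000 FPKM in each day 0 library and listed at 0 in each day 6 library. The similar levels of these 3 genes leave it uncertain whether their reads were told apart. In all, 130 genes were listed at 0 throughout day 0 and reached 1 FPKM in every day 6 library, 34 of them with a KO name, and 250 did the reverse, 62 with a KO name. The gene with the highest level on day 0, Pag.A01G004426.v3.1, was at 6475, 6488 and 6503 FPKM in the day 0 libraries and 6924, 6682 and 6767 FPKM in the day 6 libraries and did not pass (limma adjusted p = 0.195), but was called higher after scaling (log2 change 0.34).

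Markers of other leaf cell types moved in both directions, and their part in the results was not tested. The 7 tested genes listed for guard cells had 2 rises and 4 falls, with summed levels of 26.4 to 32.3 FPKM on day 0 and 41.7 to 49.7 on day 6. Within them all 4 FAMA genes, for a factor of guard cell formation, fell, Pag.A01G003554.v3.1 from 6.23 ± 0.515 to 0.577 ± 0.0651 FPKM. The anion channel gene Pag.A15G001210.v3.1 rose from 1.69 ± 0.176 to 23.8 ± 0.668 FPKM. Its KO name (SLAC1, SLAH) does not tell SLAC1, the channel of stomatal closure, from its SLAH relatives, so it may not mark guard cells. Genes listed for xylem and secondary wall had 11 rises and 48 falls among 64, with summed levels of 567 to 573 FPKM on day 0 and 435 to 512 on day 6. These are the CESA genes given above, whose sum went from 494 to 109 FPKM, laccases, whose sum went from 49.8 to 326 FPKM, and IRX9. The KO name CESA does not tell cellulose synthases of the secondary wall from others. The 32 falls among the 33 CESA genes therefore do not mark xylem or secondary wall in particular. Markers of dividing cells had 1 rise and 6 falls among 8, and 1 rise and 2 falls after scaling, and their summed levels overlapped, at 44.2 to 69.3 FPKM on day 0 and 60.3 to 64.6 on day 6.

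Gene identifiers carry the letter A or B before the chromosome number, taken here as 2 subgenomes. On subgenome A 29.7% of 20145 tested genes rose and 48.7% fell, and on subgenome B 29.8% of 18771 rose and 49.2% fell. The share of genes called higher ran from 24.3% to 32.3% over the 19 chromosomes of subgenome A and from 24.9% to 31.8% over those of B, with a Pearson r of 0.847 and a Spearman rho of 0.858 between the copies of a pair, and r was 0.79 without pair 13. For the share called lower, r was 0.507 and rho 0.367, and r was 0.208 without pair 13. These points share the 6 libraries, and near-identical gene copies on both chromosomes of a pair may share reads, so this is a description. Chromosome 13 had the lowest share called higher in both, with 24.3% called higher and 54.6% lower on A13, and 24.9% and 56.4% on B13. After scaling the shares called higher were 34.2% on A13 and 33.6% on B13, still the lowest of each subgenome. Over all chromosomes they ran from 33.6% to 42.6%.

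**Figure D5:**
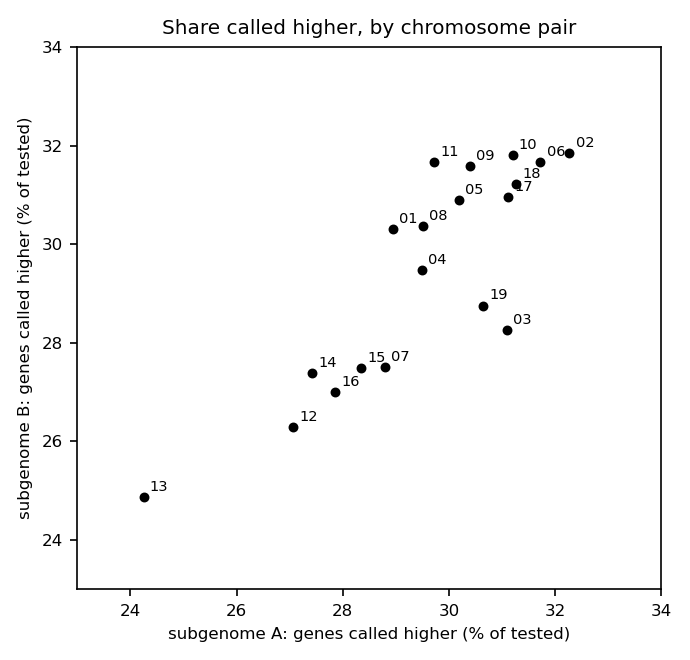
Share of tested genes called higher on day 6, in percent, on each chromosome of subgenome A (horizontal axis) and on the chromosome of the same number of subgenome B (vertical axis), 1 point for each of 19 pairs; both axes start above 0. Chromosome 13 lies lowest on both axes, at 24.3% and 24.9%.

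The position of day 6 in the time course was read from the neighbouring days. Between day 3 and day 6, 28860 genes were called (74.2%), 9069 of them with a log2 change of at least 1 (23.3%). Between day 6 and day 9, 8764 were called (22.5%), 284 with a log2 change of at least 1 (0.73%). The median absolute log2 change was 0.65 from day 0 to day 6, 0.51 from day 3 to day 6 and 0.15 from day 6 to day 9. These contrasts share the day 6 libraries. The GOLS gene Pag.B08G001455.v3.1, which went from 0.29 ± 0.0656 to 639.7 ± 14.1 FPKM between days 0 and 6, had levels of 30.3 ± 1.05 FPKM on day 3 and 859 ± 28 on day 9.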

How the data were processed

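The RNA of 6 leaf libraries was compared, 3 from day 0 and 3 from day 6, with groups taken from the labelled day. The deposited table holds FPKM values for each gene and library, per the file headers. Per the labels, libraries were built from total RNA. The sources used here do not give the aligner, genome build, strand setting or FPKM program, and with no read counts the depth is unknown beyond the relative values read from low FPKM. The authors' subset tables were not used; the day 3 and day 6 ones are byte-identical (5882 genes).

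Genes at 1 FPKM or more in at least 3 of the 6 libraries were analysed as log2(FPKM + 1). Such log2 changes understate those of low genes. All 12 libraries of the series entered a limma fit (version 3.58.1, R 4.3.3) with a mean for each day, trended prior variance and robust moderation, a procedure tested on simulated data. Benjamini-Hochberg adjustment ran over all 38916 genes, and calls were made below an adjusted p of 0.05. SDs are over the 3 libraries of a day. For median-ratio scaling, each library was divided by the median of its ratios to the geometric mean of all libraries. Lists and annotation sets are described by counts and medians, with no set test. Tables and figures were made in Python 3.11.15 with pandas 2.3.3, numpy 2.4.6 and matplotlib 3.10.9.

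Genes were named by rule. They are the 12 largest called rises and falls with a KO name, 1 per name, with no overlap of the libraries and at least 5 FPKM on average on the higher day, and the 3 largest each way without a name. The called members with the largest rise and fall of each list, the 5 most abundant genes of each day and the leading genes of the 10 highest and 10 lowest pathways by median were added. The genes Pag.B15G000559.v3.1 and Pag.A09G001304.v3.1 were chosen after their values were seen. The members and the lists were chosen with earlier results of these data known, and the KO names standing for each list were read off the annotation. One result is not reported here, and the text describes a selection of the lists. Alternatives tried were a fit to the 6 libraries alone, a pseudocount of 0.1, median-ratio scaling, other filters, a replicate block, no moderation trend, and leaving out each library.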

Additional observations from a re-analysis of the deposited data

Results flagged for a closer look

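The difference from day 0 was itself different between neighbouring days for many genes, by the limma test of the contrast between the days. Between days 3 and 6 it differed for 28860 genes, and between days 6 and 9 for 8764 genes. The counts share the day 6 libraries. Groups of 3 libraries were not searched for outlying samples.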

How the results depend on the processing

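Counts of called genes moved by less than 1.5 times under all alternatives but one. When only genes with a mean of at least 5 FPKM were tested, 8435 genes were called higher and 10545 lower, against 11569 and 19045 in the main fit. With a log2 change of at least 1 they were 3356 and 4662, against 4621 and 8467. Fewer genes are tested there, but calls lower dropped more than calls higher. The reason was not tested. Leaving out each of the 6 libraries in turn gave 11116 to 11226 genes called higher and 18377 to 18522 called lower, and 4573 to 4622 and 8433 to 8510 with a log2 change of at least 1. Libraries of the same replicate number did not deviate together (r of 0, -0.037 and -0.019 across genes), and those of different numbers had r of -0.014 to 0.032. No pairing by number was detected, but 3 libraries a day cannot exclude one. With a replicate block 11478 genes were called higher and 18916 lower. Of 160 genes picked by the rule, 157 kept their direction and side of the threshold under all 13 alternatives in which they were tested. The exceptions were the proC gene and the most abundant day 0 gene given above, the latter also called with the 6 libraries alone (limma adjusted p = 0.00687), and the ribosomal protein gene Pag.A07G002502.v3.1, whose fall had an adjusted p of 0.0367 and of 0.0636 to 0.126 without 1 of 5 libraries. The medians of 59 of 67 lists kept their sign under scaling. Those of sucrose synthesis, sucrose cleavage, ER folding chaperones, auxin response factors, SAUR and GH3, lignin, terpenes and MYB factors turned. FPKM carries no counts, so the precision of low values could not be set.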
